A study of Homo sapiens with 12 samples.

Results

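H/ACA box small nucleolar RNAs (snoRNAs) were described across RNA immunoprecipitates of the RNA-binding protein HuR and the matching inputs. A member is an Ensembl gene of the snoRNA class whose symbol starts with SNORA and a digit, and 398 of the 57773 identifiers in the count files met this rule, under 111 distinct symbols. A further identifier with such a symbol is annotated as a long intergenic noncoding RNA and was not a member. Of the 398 members, 152 had no count in any library, 132 had counts but too few for the test (at most 87 in all), and 114, under 88 symbols, were tested. Many members are copies: 342 of the 398 share their symbol with another identifier. SNORA73A is not analysed here.

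The libraries came from HuH-7, an established human hepatoma line, as 2 stably modified lines: one overexpressing wild-type HuR (WT) and one expressing HuR K120/182R, in which arginines replace a pair of lysines that carry the small modifier SUMO. In both lines HuR had a V5 tag, by which it was precipitated with its RNA (RIP). The 4 groups of 3 libraries were the precipitate and the input of each line (WT RIP, WT input, mutant RIP, mutant input), and gene-level totals ran from 31774994 to 73149117 counts. The RNA put into a library was 16 to 77 ng for a precipitate and 250 ng for an input, so an effect of amount cannot be told apart from precipitation. No mock precipitate is used here. Each form of HuR was in a line of its own, so an effect of the mutation cannot be told apart from other differences between the lines. The labels do not say that replicates were separate cultures, so the spread that p-values rest on may be technical. ELAVL1, the HuR gene, stood at 58.2 ± 5.32 CPM (reads relative to the library's size after trimmed-mean scaling, the level used throughout; SD, n = 3) in WT input. Mutant input had 48.4 ± 4.18, and reads of the tagged and the cells' own gene cannot be told apart. All 7 hepatocyte markers were tested (summed level 3455 to 12610 CPM per library), and 4 listed markers of immune and stromal cells summed to 1.88 to 5.47 CPM. Most of that sum was CD68, with means of 1.74 CPM in WT RIP, 2.30 in mutant RIP, 3.01 in WT input and 4.33 in mutant input. CD68 and COL3A1 (highest group mean 0.75 CPM) had enough counts to be tested. COL1A1 was at 0 or at most 0.0688 CPM in each library.

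H/ACA snoRNAs fold into a pair of hairpins joined by a hinge that holds the H box, and end in a tail with the letters ACA. They guide the enzyme dyskerin (DKC1), with NHP2, NOP10 and GAR1, to uridines of ribosomal and spliceosomal RNA, which it turns into pseudouridine, and a few act in the cutting of ribosomal RNA precursors instead. Most are cut out of introns of host genes, many of which encode parts of the translation machinery. HuR is known for binding U-rich and AU-rich stretches of mRNA.

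Of the members printed here, the first 4 were below their input level in the precipitates and the last 4 above it. Capitals mark the H box, searched as ANANNA centred between 35% and 65% of the length, and ACA followed by 1 to 5 bases, both on the RNA strand only. Sequences run 5′ to 3′ and were read from GRCh37, the same build as hg19. SNORA28 and SNORA65 were picked after their values were seen, as members held in an intron and overlapping no exon of another gene.
SNORA73B, chr1:28835071-28835274, plus strand: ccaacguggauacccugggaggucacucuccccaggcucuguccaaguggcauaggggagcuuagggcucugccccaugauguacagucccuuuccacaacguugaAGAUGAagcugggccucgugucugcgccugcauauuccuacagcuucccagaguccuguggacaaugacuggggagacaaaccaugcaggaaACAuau
SNORA53, chr12:98993413-98993661, plus strand: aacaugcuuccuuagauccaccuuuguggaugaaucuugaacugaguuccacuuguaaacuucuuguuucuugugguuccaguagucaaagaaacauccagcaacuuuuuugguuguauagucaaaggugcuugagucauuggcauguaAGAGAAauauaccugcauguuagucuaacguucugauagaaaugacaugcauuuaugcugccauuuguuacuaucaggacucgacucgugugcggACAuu
SNORA79, chr14:20791338-20791485, minus strand: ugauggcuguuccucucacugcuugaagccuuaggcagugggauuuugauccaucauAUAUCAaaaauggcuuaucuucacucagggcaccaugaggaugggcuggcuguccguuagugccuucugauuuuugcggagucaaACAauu
SNORA47, chr5:76376259-76376396, minus strand: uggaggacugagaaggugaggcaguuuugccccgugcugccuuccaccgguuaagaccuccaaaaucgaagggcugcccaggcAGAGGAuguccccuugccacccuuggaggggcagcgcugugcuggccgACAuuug
SNORA12, chr10:101996913-101997059, minus strand: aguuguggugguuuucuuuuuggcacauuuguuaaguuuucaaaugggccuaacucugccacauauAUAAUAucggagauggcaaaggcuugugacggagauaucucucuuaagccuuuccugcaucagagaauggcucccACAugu
SNORA41, chr2:207026952-207027083, plus strand: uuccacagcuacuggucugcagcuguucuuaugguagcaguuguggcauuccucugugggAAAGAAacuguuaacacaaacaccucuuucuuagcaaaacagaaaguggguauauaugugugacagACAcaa
SNORA28, chr14:103804186-103804311, plus strand: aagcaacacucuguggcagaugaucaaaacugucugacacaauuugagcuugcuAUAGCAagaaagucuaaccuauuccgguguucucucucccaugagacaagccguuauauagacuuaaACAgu
SNORA65, chr9:130210780-130210909, minus strand: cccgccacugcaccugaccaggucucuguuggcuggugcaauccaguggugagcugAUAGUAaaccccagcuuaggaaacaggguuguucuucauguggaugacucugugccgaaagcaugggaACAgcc
Both boxes were found in 233 of the 398 members (58.5%), against 4 of 388 C/D box genes (symbols starting SNORD; 1.03%) and 1007 of 35116 RefSeq promoter windows cut to 132 bases (2.87%). A match describes the letters only. Of the 114 tested members 88 held both.

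The place of a member decides what its counts can hold. Of the 114 tested, 60 lie in introns on the strand of their host, 23 in introns that an annotated transcript retains, 25 in exons on the same strand, 4 only opposite another gene and 2 between genes. Reads of unspliced or retained host RNA over these positions cannot be told apart from reads of the snoRNA. The strand setting of the counting is not given in the sources used here, so neither can reads of a gene on the opposite strand. The values of 58 tested members were set apart as uncertain: 48 touch an exon or retained intron of another gene on the same strand, and 15 have a copy of at least 95% identity. Overlap with exons on the opposite strand was not used for this count. The sequence of SNORA59A, in VPS13D on chromosome 1, recurs at 100% identity within the longer SNORA59B, in SLC47A1 on chromosome 17, and their totals were 2911 and 2948 counts. A pair of SNORA74 copies in TIMM23 and TIMM23B, also identical, had the same count in 12 of 12 libraries (30 in all for each, below the test). Of members named below, SNORA36A in DKC1 and SNORA36C in AAK1 share 97.0% identity. The SNORA15 copy in CCT6A has 97.7% with another SNORA15, and SNORA10 in RPS2 98.5% with a SNORA64 copy. Their values are uncertain for that reason.

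The class was a small part of every library and was led by 1 RNA. Members held 0.164% ± 0.0347 (SD, n = 3) of counts in WT RIP and 0.257% ± 0.0634 in mutant RIP. The inputs had 0.118% ± 0.0217 for WT and 0.122% ± 0.0303 for the mutant. On the CPM scale the order of precipitate and input turned: the summed level was 724, 1386 and 1008 in WT RIP and 1196, 2284 and 1303 in WT input. It was 1203, 2032 and 2287 in mutant RIP and 1542, 2262 and 2574 in mutant input. The first library was the lowest of its group in all 4 groups.

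SNORA73B (ENSG00000200087, in an intron of RCC1), known as U17b and required in textbook accounts for cutting the precursor of small-subunit rRNA, held 59.1% of the members' CPM in WT input and 61.6% in mutant input. Its share was 26.2% in WT RIP and 29.5% in mutant RIP. Per kilobase of its length it stood at 3758 CPM on average, where the median member stood at 18.5 and the lowest at 0.421. SNORA63 (487 CPM per kilobase), which acts in rRNA cutting like SNORA73B, SNORA48 (447), SNORA53 (330.1) and SNORA12 of CWF19L1 (305) came next, and 19 of 114 were above 100. In the WT precipitate, SNORA63 (398) and SNORA12 (347) lay above SNORA53 (68.1 CPM per kilobase), while in WT input SNORA53 (431) lay above both (348 and 88.3). Without SNORA73B, the summed level of the class was 767 ± 223 CPM in WT RIP and 652 ± 273 in WT input, and 1297 ± 357 in mutant RIP and 817 ± 167 in mutant input.

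**Figure D1:**
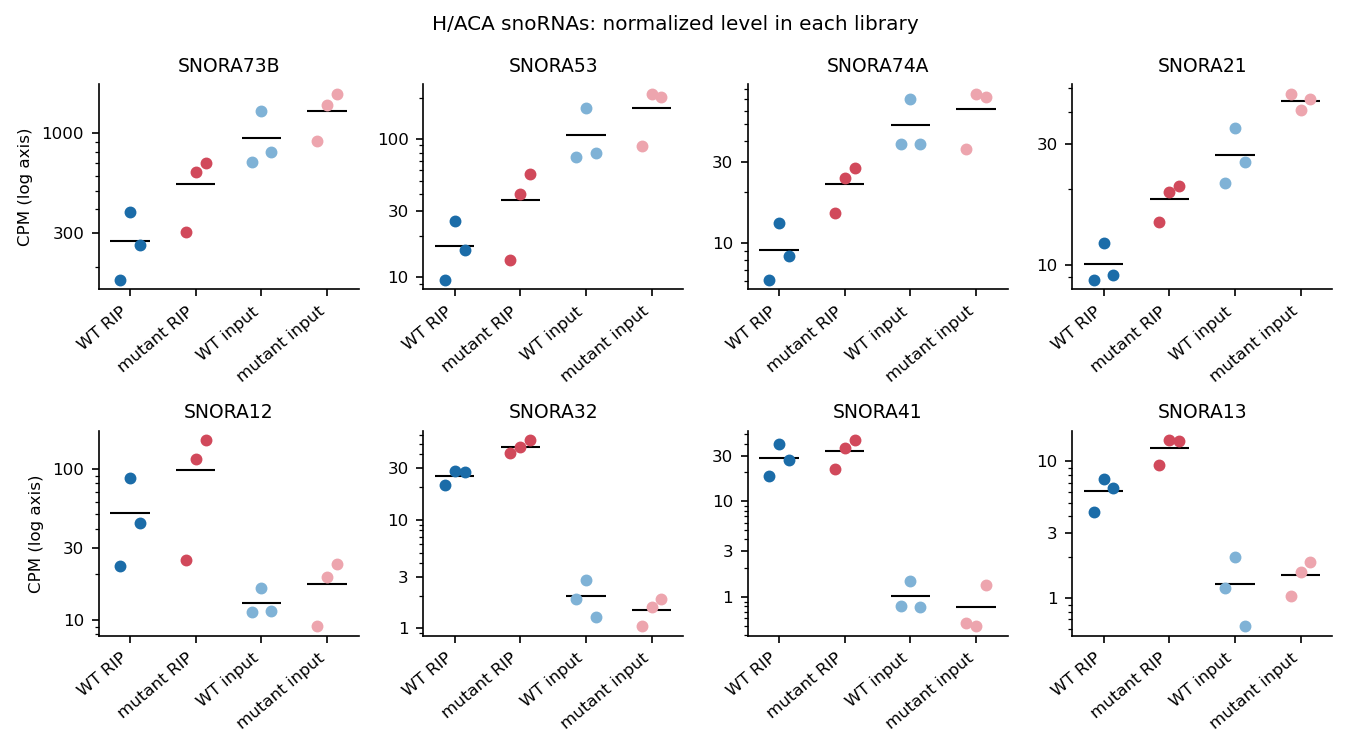
Normalized level (CPM, log axis) of 8 H/ACA snoRNAs in each library, with points for libraries 1 to 3 from left to right and a line at the group mean. In the upper row precipitates lie below the inputs of the same line, with SNORA73B at 170.2 to 387 CPM in WT RIP and 709 to 1317 in WT input, and in the lower row above them. With total library size the mutant differences of SNORA73B and SNORA21 become log2 0.01 and 0.00.

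The first comparison set the WT precipitate against its input. More members were higher than lower: 49 of 114 rose and 21 fell by edgeR's quasi-likelihood test (adjusted p under 0.05), with a median log2 fold change of 0.98. Over all genes tested 25.6% were higher and 25.4% lower, and the median was 0.06. The members' shares were 43.0% and 18.4%, above the background for higher calls and below it for lower calls. All 3 precipitates lay above all 3 inputs for 54 members and below for 22 (all 22984 genes: 6980 and 6623). Total library size moved the median of all genes to 1.12. The split then became 82 higher and 11 lower (all genes: 15761 and 879 of 22984). Counting the 56 members with no same-strand exon overlap or close copy, a choice made after seeing the data, it was 20 higher and 15 lower, with a median of 0.50. These are shares of 35.7% and 26.8%, so their share of lower calls was not below the background. It was 25.6% over members with a mean of 1 CPM or more and 19.05% over those with 5 CPM or more.

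In the mutant line 63 of 114 members were higher and 20 lower in the precipitate than in its input, with a median of 1.25 (all genes: 29% higher, 28% lower, median 0.07). These counts became 88 and 4 with total library size (all genes: 16795 and 922, median 1.38). Over the 56 members without overlap or copy they were 26 and 12. The enrichments of both lines, which have no library in common, gave the members nearly the same order (Spearman correlation 0.96 over 114 members of the same libraries). Of the 49 members higher in WT, 47 were higher in the mutant (95.9% of the first list and 74.6% of the second), and 17 were lower in both. No member was called in opposite directions, and 25 were called in 1 line only. That does not show that the lines differ, which was tested between the enrichments themselves.

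**Figure D2:**
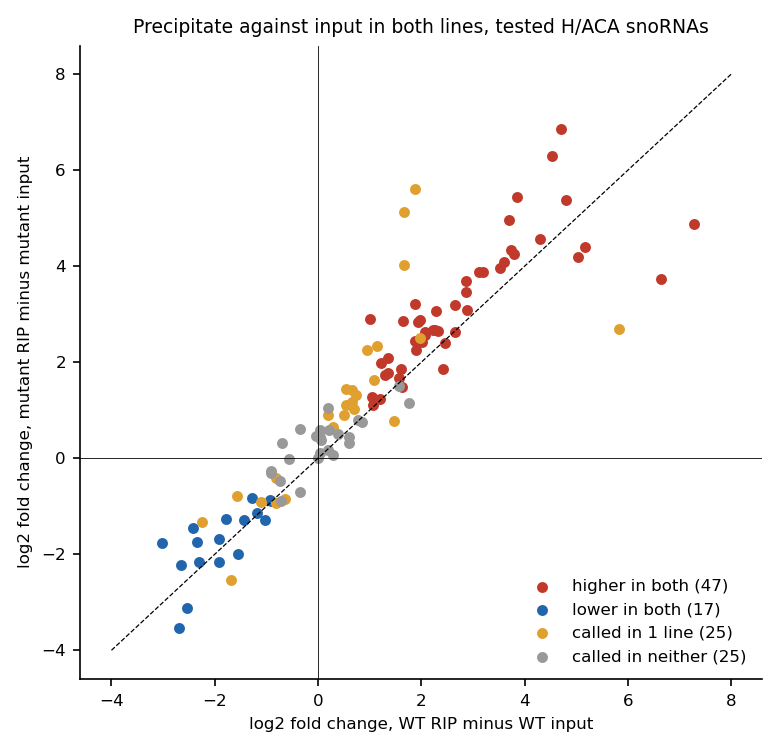
Log2 fold change of precipitate against input in the WT line (x axis) and the mutant line (y axis) for 114 H/ACA snoRNAs, with a dashed line at equal values and colours for the calls. The members lie along the dashed line, 47 of them higher and 17 lower in both lines.

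The lower members included SNORA73B, the most counted member, and several of the longest. As a set they were not the most counted. The median level of members lower in WT RIP was 2.49 CPM, against 4.14 for the higher ones and 1.75 for those not called. SNORA73B stood at 170.2, 387 and 259 CPM in WT RIP and 709, 1317 and 799 in WT input, a log2 difference of −1.79 ± 0.42 (SE; edgeR adjusted p = 0.00553). Its mutant values were 302, 629.5 and 698 and 908, 1404 and 1615 (−1.27 ± 0.42, adjusted p = 0.0254). Every precipitate was below every input of its line, but the mutant call was lost without mutant RIP 1 (−0.98, adjusted p = 0.0553), mutant RIP 2 (−1.39), mutant input 2 (−1.24) or mutant input 3 (−1.09). It was 0.01 with total library size. SNORA53, in a partly retained intron of the phosphate carrier gene SLC25A3, went from 74.7, 168 and 79.0 CPM in WT input to 9.55, 25.7 and 15.6 in WT RIP (−2.66 ± 0.66, adjusted p = 0.00919). The mutant values of SNORA53 were 89.4, 213 and 202 in input and 13.3, 39.8 and 55.9 in RIP (−2.21 ± 0.65, adjusted p = 0.0175), and the groups of each line did not overlap. Scaled by total library size, the mutant difference was −0.93 and no longer passed (adjusted p = 0.118).

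SNORA74A, known as U19, was at 38.4, 70.6 and 38.5 CPM in WT input and 6.11, 13.1 and 8.41 in WT RIP (−2.41 ± 0.44, adjusted p = 0.00175). Mutant input and RIP had 35.5, 75.2 and 72.3 and 14.98, 24.2 and 27.8 (−1.46 ± 0.43, adjusted p = 0.0176). Precipitates lay below inputs in both lines, and the mutant call was lost without mutant RIP 1 (−1.24, adjusted p = 0.0606) and with total library size (−0.15). Its relative SNORA74B, in ATP6V0E1, was lower in WT RIP (2.70, 4.65 and 3.45 against 11.5, 28.2 and 12.1 CPM; −2.25 ± 0.59, adjusted p = 0.0123). In the mutant, SNORA74B stood at 2.46, 8.10 and 6.45 and 6.74, 19.3 and 16.5 with overlapping groups (−1.33 ± 0.58, adjusted p = 0.0811), and it passed without mutant input 1 (−1.67, adjusted p = 0.0399) and with DESeq2 (−1.29, adjusted p = 0.0381).

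Among the members lower by the most were also RNAs of low level. SNORA38B in NOL11 was at 0.149, 0.169 and 0.225 CPM in WT RIP and 1.52, 2.15 and 0.858 in WT input (−3.03 ± 0.37, adjusted p = 2.14e-07). SNORA37 in MBD2 was at 0.232, 0.282 and 0.407 and 1.37, 3.30 and 1.44 (−2.70 ± 0.42, adjusted p = 1.31e-05), and at −3.53 ± 0.47 it was the lowest of the mutant enrichment. SNORA47 in ZBED3 was at 0.480, 0.832 and 0.645 and 3.40, 3.72 and 4.35 CPM (−2.54 ± 0.23, adjusted p = 1.17e-09), with −3.11 ± 0.23 in the mutant line. In each of these the precipitates lay below the inputs without overlap, in both lines. SNORA79 in CCNB1IP1, of higher level, was at 5.55, 7.41 and 9.75 CPM in mutant RIP and 41.9, 21.4 and 37.4 in mutant input (−2.16 ± 0.33, adjusted p = 0.000234), and at −2.31 ± 0.33 in WT.

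The members highest over input were of moderate or low level. SNORA41, in a retained intron of the elongation factor gene EEF1B2, stood at 18.4, 39.5 and 26.9 CPM in WT RIP and 0.803, 1.47 and 0.793 in WT input (4.81 ± 0.48, adjusted p = 2.77e-05). The mutant values were 21.7, 35.6 and 43.4 and 0.536, 0.494 and 1.35 (5.39 ± 0.51, adjusted p = 1.3e-05). Precipitates and inputs did not overlap in either line. SNORA29, in a retained intron of the chaperonin gene TCP1, was at 3.67, 4.23 and 5.67 CPM in mutant RIP and 0.0596, 0.0520 and 0 in mutant input (6.86 ± 0.51, adjusted p = 4.02e-11), and at 4.71 ± 0.44 in WT. Both SNORA19 copies in EIF3A, a translation initiation factor gene, were higher: ENSG00000207468 stood at 1.06, 1.13 and 1.81 CPM in WT RIP and 0, 0.131 and 0 in WT input (5.04 ± 0.76, adjusted p = 2.76e-05). ENSG00000222588 stood at 3.57, 5.17 and 6.81 in mutant RIP and 0.0298, 0.0520 and 0.106 in mutant input (6.29 ± 0.47, adjusted p = 7.01e-11). The SNORA30 copy in SRCAP was at 0.596, 1.48 and 1.43 and 0.0423, 0 and 0.0429 CPM in WT RIP and input (5.18 ± 0.73, adjusted p = 4.2e-06).

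Some of the largest fitted values rest on inputs with no count, so a lower bound against 3 counts over the group is given in place of a fold. SNORA9 in DDX55 had 77 counts in WT RIP and 0 in WT input, at least 16.7-fold higher. The SNORA30 copy in PGS1 had 49 and 0 (at least 10.6-fold), and the SNORA64 copy ENSG00000199566 between genes 27 and 0 (at least 5.87-fold). In the mutant line SNORA9 had 101 and 2 counts, a ratio of 31.6 with a 95% counting interval of 8.52 to 264. SNORA36C in AAK1 had 18 and 0 (at least 3.75-fold), and the SNORA73 copy in MIB1 14 and 0 (at least 2.92-fold). In the mutant line, SNORA36C lost its call without mutant RIP 2 (fitted log2 3.96, adjusted p = 0.143) or mutant input 2 (5.45), and SNORA73 without mutant RIP 3 (4.73) or any 1 mutant input (5.17 to 5.18). Intervals and bounds cover counting error only, and of the 689 member values from 1 to 10 counts 72.1% were even.

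SNORA12 of CWF19L1, among the highest by level, was called in the mutant line and not in WT by the main fit, and both calls changed between settings. It was at 22.7, 86.5 and 43.8 CPM in WT RIP and 11.3, 16.2 and 11.4 in WT input (1.98 ± 0.74, adjusted p = 0.0522), without overlap but short of the threshold. The mutant values were 24.8, 116 and 154 and 9.03, 19.1 and 23.4 (2.51 ± 0.74, adjusted p = 0.0186). WT passed without WT RIP 1 (2.33, adjusted p = 0.0369), without mutant RIP 1 (1.98, adjusted p = 0.0191) and with DESeq2 (adjusted p = 0.0081), and the mutant call was lost without mutant RIP 3 (2.03), mutant input 1 (2.21) or mutant input 2 (2.58). SNORA63 of EIF4A2 (WT 0.20 ± 0.58, adjusted p = 0.804; mutant 1.05 ± 0.59, adjusted p = 0.162) and SNORA48 of EIF4A1 (−0.56 ± 0.31, adjusted p = 0.159; −0.02 ± 0.31, adjusted p = 0.967) did not pass, and their groups overlapped. SNORA48 was above 0 with total library size (0.51 and 1.27).

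Members with a role of their own fell on both sides. SNORA13, in an exon of EPB41L4A-AS1 and studied as a regulator of ribosome assembly and senescence, was at 4.25, 7.43 and 6.44 CPM in WT RIP and 1.18, 1.99 and 0.622 in WT input (2.28 ± 0.34, adjusted p = 5.22e-05), with 3.07 ± 0.34 in the mutant line, and no library overlapped in either. SNORA23 in IPO7 was at 12.7, 30.7 and 17.98 and 31.8, 51.3 and 32.8 CPM (−0.91 ± 0.40, adjusted p = 0.0867), each WT precipitate being below each WT input. It passed without WT RIP 2 (−1.33, adjusted p = 0.0209) or mutant RIP 1 (−0.92, adjusted p = 0.0427) and was 0.14 with total library size. It did not pass in the mutant line (−0.32 ± 0.39, adjusted p = 0.527).

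SNORA42, studied in lung cancer, had tested copies that differed. The copy in AIMP2 was lower in the WT precipitate (0.430, 0.493 and 0.575 against 1.18, 2.98 and 1.59 CPM; −1.92 ± 0.31, adjusted p = 1.36e-05) and the mutant one (−1.68 ± 0.32). The copy in KHDC4 was at 1.95, 3.24 and 1.87 and 0.676, 2.88 and 1.16 CPM (0.61 ± 0.48, adjusted p = 0.317), and passed upward without WT input 2 (1.38, adjusted p = 0.00317). SNORA7A and SNORA7B, at 98.6% identity, did not pass. SNORA7A in RPL32 gave −0.01 ± 0.17 in WT and 0.02 ± 0.17 in the mutant. SNORA7B gave −0.74 ± 0.32 (adjusted p = 0.0550) and −0.47 ± 0.31, and passed in WT without WT RIP 2 (−1.18) or WT input 1 (−0.97) and with no filter on low counts (−0.72, adjusted p = 0.0295). SNORA7A moved to 1.05 and 1.32 with total library size, and SNORA7B to 0.34 and 0.84. SNORA24 had 57 counts in its most counted copy and was not tested.

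Length and base composition, which the choice of members did not use, are set beside the enrichment as descriptions, with no test. The 11 tested members of 160 bases or more, a limit set after seeing the data, had a median log2 of −0.91 in the WT enrichment, with 2 higher and 5 lower. The 103 shorter ones had a median of 1.06, with 47 higher and 16 lower. For the mutant the longer ones gave 3 higher and 4 lower and the shorter ones 60 and 16. The longer lower members were SNORA53 (249 bases), SNORA73B (204), SNORA74A (198), SNORA74B (201) and SNORA71B (272), and the longer higher ones SNORA59B (701) and the SNORA73 copy in RPS7 (163). Members higher in WT RIP had a median GC content of 42.8%, a U content of 30.2% and a longest U run of 4 bases, against 54.3%, 26.5% and 3 for the lower ones. Those not called had 46.4%, 30.3% and 3, so the higher members did not exceed them in U content. Across the 114 members, the Spearman correlation with the WT and mutant enrichments was −0.36 and −0.42 for GC content and −0.24 and −0.26 for length. It was 0.26 and 0.31 for U content and 0.10 and 0.16 for the longest U run. These are descriptions across genes of the same libraries. With the mean level the correlation was −0.13 and −0.11.

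**Figure D3:**
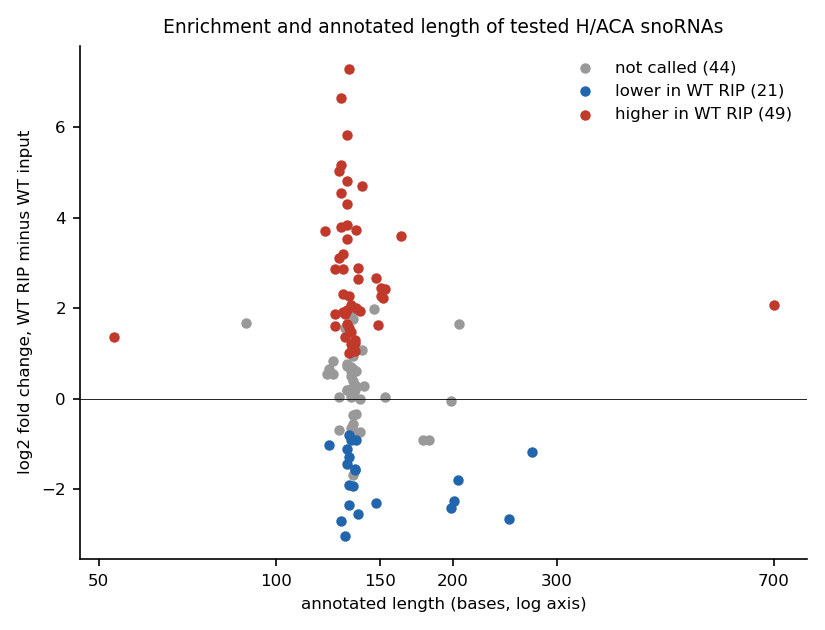
Log2 fold change of WT RIP against WT input by annotated length (bases, log axis) for 114 H/ACA snoRNAs, coloured by the call. Most members have 120 to 150 bases and spread from −3.03 to 7.29, and of the 11 of 160 bases or more 5 were lower and 2 higher.

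Members and the genes that hold them often differed in their values. For 104 tested members the host was tested too (76 hosts), and the member's log2 value was above the host's in 62 pairs in WT and 63 in the mutant. The median host stood at 0.19 and 0.42, and the median of these members at 0.89 and 1.20. In WT 15 pairs were called in opposite directions, 7 with the snoRNA lower and the host higher, and 8 the other way (16, 7 and 9 in the mutant). SNORA52 was at 1.20 ± 0.22 and its host RPLP2, a ribosomal stalk protein gene, at −1.59, while SNORA79 was at −2.31 and CCNB1IP1 at 0.62. Between the precipitates and between the inputs, 0 pairs were called in opposite directions.

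**Figure D4:**
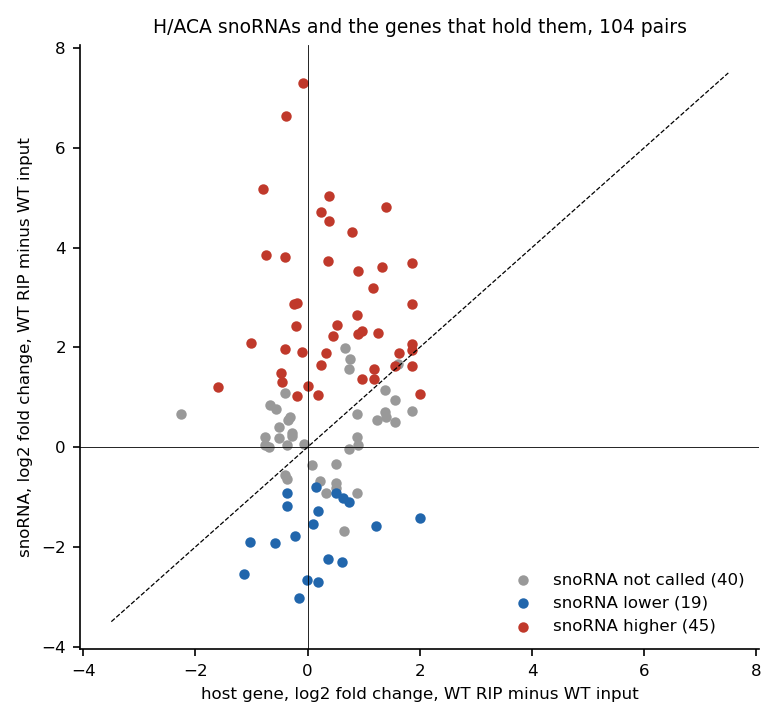
Log2 fold change of WT RIP against WT input for the host gene (x axis) and the snoRNA (y axis) in 104 pairs, with a dashed line at equal values and colours for the snoRNA's call. Hosts run from −2.25 to 2.004, snoRNAs from −3.03 to 7.29, and 62 points lie above the dashed line.

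Members of 1 host also differed among themselves. TAF1D, a gene for a factor of ribosomal RNA transcription, holds 6 tested members in exons or retained introns, and they ran from 0.73 for SNORA18 to 3.70 for SNORA32 in WT, with the host at 1.86 and 5 of 6 called higher. EIF4A2 holds SNORA4 at 2.65, SNORA63 copies at 0.20 and 0.66 and SNORA81 at −0.91, of which SNORA4 was called. RPL23, at 2.004, holds both tested SNORA21 copies: ENSG00000199293 was lower (8.75, 12.3 and 9.18 against 21.1, 34.9 and 25.6 CPM; −1.43 ± 0.17, adjusted p = 2.96e-07) and ENSG00000252699 higher (2.68, 3.44 and 2.57 against 1.42, 1.23 and 1.501 CPM; 1.06 ± 0.29, adjusted p = 0.00476). Neither copy's WT groups overlapped. In the mutant line they stood at −1.29 ± 0.17 and 1.11 ± 0.28, and with total library size the first moved to −0.35 for WT (adjusted p = 0.12) and 0.00 for the mutant.

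RPS2 holds SNORA10 at −1.28 and SNORA64 at 1.05, both called, and TCP1 holds SNORA20 at 1.65 beside SNORA29 at 4.71. SNORA56 (3.80 ± 0.40) and SNORA36A (1.97 ± 0.50) lie in DKC1, the gene of the pseudouridine synthase itself, which was lower (−0.40 ± 0.11, adjusted p = 0.00429). The 4 SNORA71 members in SNHG17 ran from −1.18 to 0.05 with the host at −0.36, and the 3 members in KANSL2 from −0.92 to −0.34 with the host at 0.50.

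Whether the enrichment differed between the lines was tested as the difference between both enrichments. Each form of HuR was in a line of its own, so mutation and line cannot be told apart. No member was called in either direction by edgeR (all genes: 0.0653% higher, 0% lower). At an unadjusted p under 0.05 there were 6 higher and 0 lower (all 22984 genes: 1747 and 1258). DESeq2 called 2 higher and 0 lower (all genes: 331 and 58). The median difference was 0.42 (0.00 over all genes), and 87 of 114 values were above 0. That median fell to 0.01 without WT input 2 and to 0.25 without mutant input 1. Scaling by total library size gave 6 members higher and 0 lower (all genes: 96 and 9), with the median of all genes at 0.25. SNORA32 had the smallest p among the members (1.27 ± 0.31, adjusted p = 0.109), followed by the SNORA15 copy in CCT6A (1.89 ± 0.48, adjusted p = 0.111) and SNORA8 (0.90 ± 0.26, adjusted p = 0.143). The other 3 of the 6 were SNORA38B (1.27), SNORA29 (2.15) and SNORA34 (0.96), and all 6 were named after their values were seen. Leaving out WT input 3 gave 2 higher members and leaving out mutant input 3 gave 1.

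The precipitates were then compared with each other. In mutant RIP 22 members were higher than in WT RIP and 0 lower by edgeR, against 9.87% and 9.76% of all genes. This is 19.3% of the members. The median was 0.57 (0.01 over all genes), and 98 of 114 values were above 0. At an unadjusted p under 0.05, 39 were higher and 1 lower, a SNORA11 copy in MAGED2 that was named after its value was seen. MAGED2 itself was at −1.31 ± 0.15, and DESeq2 called 31 members higher and 0 lower. By total library size 30 members were higher and 1 lower (all genes: 776 and 2529), the median of all genes being −0.17. The count depended on single libraries, with 12 higher without WT RIP 1, 14 without mutant RIP 2 and 13 without mutant RIP 3. Fitting only these 2 groups gave 38 higher and 1 lower (all 22069 genes of that fit: 2367 and 2230). Of the 56 members without overlap or copy 8 were higher. All 3 mutant precipitates lay above all 3 WT precipitates for 43 members and below for 2 (all 22984 genes: 4153 and 4029).

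The 6 members with the smallest p were SNORA6, SNORA21, SNORA52, SNORA57, a SNORA19 copy and SNORA32. SNORA6, in a retained intron of the ribosomal protein gene RPSA, went from 11.4, 16.8 and 16.2 CPM in WT RIP to 25.3, 30.3 and 30.4 in mutant RIP (0.95 ± 0.17, adjusted p = 0.0004). SNORA32 of TAF1D went from 20.8, 27.9 and 27.5 to 40.9, 47.0 and 53.9 (0.89 ± 0.19, adjusted p = 0.00201), and SNORA19 (ENSG00000222588) from 1.19, 2.41 and 2.39 to 3.57, 5.17 and 6.81 (1.36 ± 0.29, adjusted p = 0.00149). None of these groups overlapped. Their inputs did not pass the test (0.54 ± 0.20, −0.38 ± 0.25 and −0.38 ± 0.82). The hosts RPSA (0.93 ± 0.19) and TAF1D (0.76 ± 0.18) were also called higher in mutant RIP, and EIF3A (0.36 ± 0.14) was not.

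SNORA21 (ENSG00000199293) rose from 8.75, 12.3 and 9.18 to 14.8, 19.5 and 20.5 CPM (0.86 ± 0.17, adjusted p = 0.000988) and SNORA52 from 3.64, 7.10 and 5.96 to 12.4, 11.4 and 8.99 (0.97 ± 0.20, adjusted p = 0.00128). SNORA57, in an exon of CSKMT, rose from 30.9, 52.2 and 34.2 to 60.3, 69.7 and 67.2 (0.75 ± 0.16, adjusted p = 0.00148). These 3 were separated between the precipitates and were also higher in the mutant inputs. Their hosts CSKMT (0.72 ± 0.15) and RPL23 (0.54 ± 0.17) were called higher in mutant RIP, and RPLP2 (0.40 ± 0.19) was not. Whether these members changed apart from their hosts was not tested. SNORA73B was at 0.996 ± 0.41 between the precipitates (adjusted p = 0.133) and SNORA74A at 1.27 ± 0.43 (adjusted p = 0.0766), larger differences than those of SNORA57 but with more spread. Of the members higher than input in WT 15 of 49 were higher in mutant RIP, of the lower ones 3 of 21 and of those not called 4 of 44. WT RIP enters both sides of that count.

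**Figure D5:**
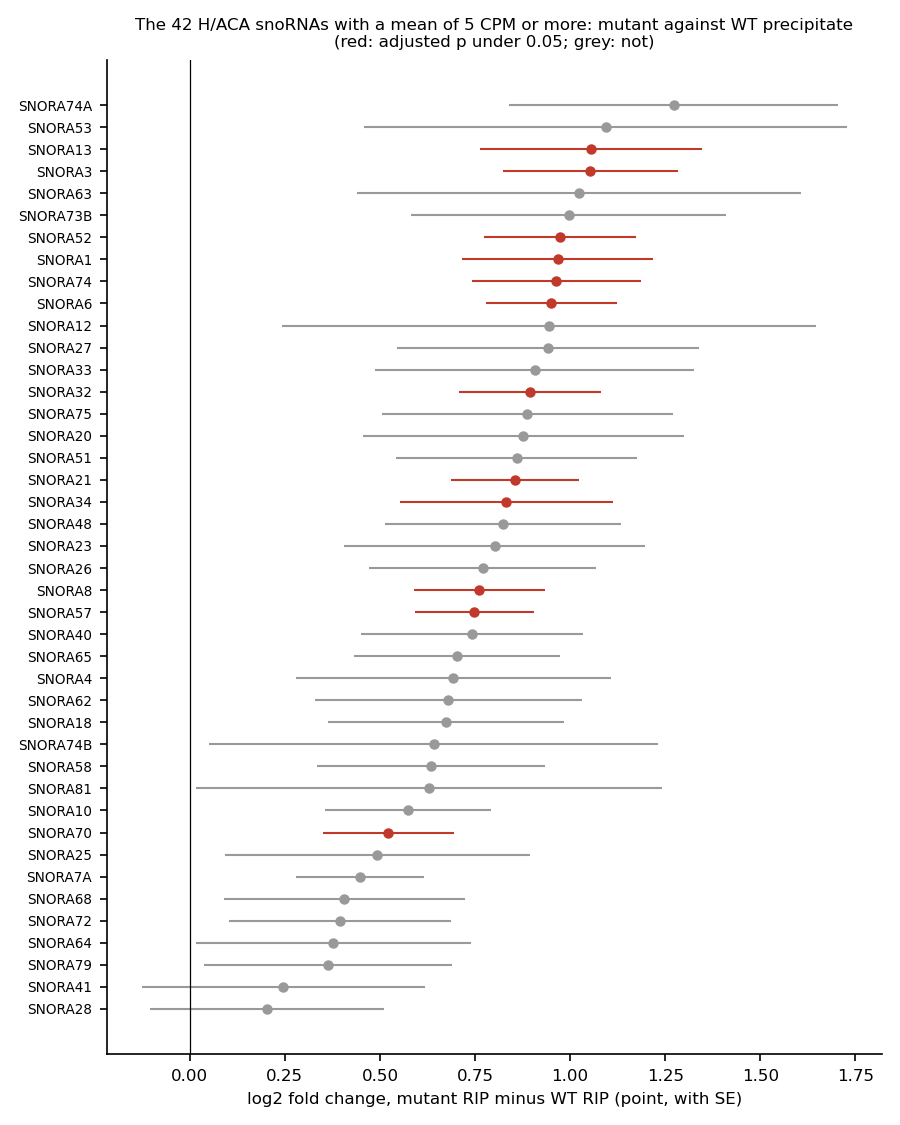
Log2 fold change of mutant RIP against WT RIP (point, with the standard error as bar) for the 42 H/ACA snoRNAs with a mean of 5 CPM or more, ordered by value, with red for an adjusted p under 0.05. All 42 points lie above 0, from 0.20 to 1.27, and 12 are red; with total library size the median of all genes is −0.17.

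Between the inputs few members differed. In mutant input 5 were higher than in WT input and 0 lower (4.39% and 0% of the members, against 7.47% and 10% of all genes), with a median of 0.14. Single libraries decided that median, which was 0.52 without WT input 2, 0.21 without mutant input 1, 0.01 without WT input 3, −0.03 without WT input 1 and −0.04 without mutant input 3. At an unadjusted p under 0.05 there were 14 higher and 2 lower (all genes: 3232 and 3783). DESeq2 called 11 and 0 (all genes: 2238 and 2243). With total library size the direction turned, to 0 higher and 13 lower (all genes: 386 and 6822), with the median of all genes at −0.43. The count also rested on WT input 2, the library with the highest summed member level of its group: without it 20 were higher, and without mutant input 1 it was 9.

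WT input held SNORA57 at 12.6, 13.5 and 11.99 CPM, and mutant input at 20.5, 22.2 and 28.1 (0.90 ± 0.16, adjusted p = 0.000456). SNORA52 was at 2.39, 2.88 and 2.04 and 5.60, 4.47 and 3.96 (0.94 ± 0.22, adjusted p = 0.00446), and SNORA47 at 3.40, 3.72 and 4.35 and 5.93, 7.02 and 7.56 (0.84 ± 0.20, adjusted p = 0.00459). SNORA21 was at 21.1, 34.9 and 25.6 and 47.4, 41.0 and 45.1 (0.71 ± 0.17, adjusted p = 0.00459), and SNORA71A of SNHG17 at 2.28, 4.40 and 3.26 and 5.51, 4.89 and 5.37 (0.67 ± 0.20, adjusted p = 0.0203). In all 5 each mutant library was above each WT library, but none passed with total library size (0.29 to 0.53), and SNORA71A did not pass without WT input 1 (0.48, adjusted p = 0.139). Of these 5, 4 were among the 22 that were higher in mutant RIP, a comparison that shares no library with this one. The hosts CSKMT (0.80), RPLP2 (0.67) and SNHG17 (0.68) were also called higher in mutant input. RPL23 (0.35) and ZBED3 (0.18) were not. In such bulk RNA, fewer cells with an RNA and less of it per cell cannot be told apart.

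The genes that H/ACA RNAs work with were called at shares near those of all genes in the enrichments. Of 21 listed genes for core proteins, assembly, 3′ maturation and transport, and the telomerase RNA TERC, which ends in an H/ACA domain, 7 were higher and 5 lower in the WT enrichment and 6 and 4 in the mutant (medians 0.07 and 0.24), where all genes had 25.6% and 25.4% for WT and 29% and 28% for the mutant. ZCCHC7, of a nuclear RNA surveillance complex, was highest, at 183, 212 and 284 CPM in WT RIP and 38.2, 43.0 and 37.9 in WT input (2.51 ± 0.15, adjusted p = 3.81e-12). PARN, a deadenylase that trims H/ACA ends, was also higher (0.77 ± 0.12, adjusted p = 5.4e-06), and the assembly factor RUVBL2 was lowest (−1.40 ± 0.14, adjusted p = 5.04e-09). TERC was higher too, at 61.2, 128 and 68.6 and 42.1, 55.8 and 40.2 CPM (0.90 ± 0.30, adjusted p = 0.0302). In the mutant enrichment TERC did not pass (0.665 ± 0.30, adjusted p = 0.08575), while ZCCHC7 (2.95), PARN (1.11) and RUVBL2 (−1.29) were called as in WT.

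Of the core proteins, GAR1 was higher in WT RIP (0.55 ± 0.17, adjusted p = 0.00752) and DKC1 lower, while NHP2 (0.07 ± 0.12) and NOP10 (−0.35 ± 0.15) did not pass. In the mutant enrichment GAR1 was higher (0.66 ± 0.17, adjusted p = 0.00134) and NOP10 lower (−0.36 ± 0.15, adjusted p = 0.0457). There DKC1 (−0.14 ± 0.11) and NHP2 (0.005 ± 0.12) did not pass. Between the precipitates 7 of the 21 were higher in the mutant and 0 lower, against 9.87% and 9.76% of all genes. Between the inputs it was 2 and 0, against 7.47% and 10%. NHP2 was higher in both mutant fractions, by 0.73 ± 0.12 in RIP (adjusted p = 0.000164) and 0.79 ± 0.12 in input (adjusted p = 8.17e-05), at 71.7, 66.3 and 60.9 CPM in mutant input against 36.5, 37.9 and 40.2 in WT input. DKC1 did not pass between the precipitates or between the inputs (0.15 ± 0.11 and −0.11 ± 0.11). No gene of the list was called in the difference of enrichments.

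Beside C/D box snoRNAs, which guide methylation and lie in introns in the same way, the H/ACA members held a larger share of lower calls, though this difference was not tested. Of 127 tested C/D box genes 104 were higher and 5 lower in the WT enrichment (81.9% and 3.94%; median 2.84) and 106 and 8 in the mutant (median 2.97). The H/ACA medians were 0.98 and 1.25, and their shares of lower members 18.4% and 17.5%. Between the precipitates both classes stood at a median of 0.57, with 24 of 127 C/D box genes higher and 0 lower. Between the inputs 10 C/D box genes were higher and 0 lower (median 0.36).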

How the data were processed

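Values are raw read counts per Ensembl gene, deposited by the authors as 1 set per library. Per the labels' protocols libraries were stranded total RNA. Per the submitters' processing notes the tools were bcl2fastq 2.20.0.422, cutadapt, STAR 2.4.0j and featureCounts 1.6.4, with hg19. Which annotation was counted, with what strand setting, and how multi-mapped reads were handled are not given in the sources used here. Names, places and hosts came from GENCODE 44 on GRCh37, in which 55538 of 57773 identifiers have an entry.

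All 22984 genes kept by filterByExpr (minimum count 10, minimum total 15) were fitted in edgeR 4.0.16 (R 4.3.3): TMM, 4 groups, 12 libraries, 8 residual degrees of freedom, robust quasi-likelihood F-test, Benjamini-Hochberg adjustment over all genes, calls under 0.05. Only members are printed. SE came from the F statistic. DESeq2 1.42.0 was an alternative. The fit was tested on simulated data. Tables and plots used Python 3.11.15, pandas 2.3.3, numpy 2.4.6 and matplotlib 3.10.9. Replicates differed beyond sampling noise (chi-square per degree of freedom 14.97 to 228.8).

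The members and lists were chosen with earlier results of these data known. Named members were the 6 of highest CPM, the 5 highest and 5 lowest separated calls of each enrichment, up to 6 calls of the other comparisons by smallest adjusted p, members of known role and members sharing a host. A member that this rule names is not reported here.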

Additional observations from a re-analysis of the deposited data

How the results depend on the processing

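Scaling was varied (total library size, DESeq2 size factors, coding-gene TMM), as were the filter (none, or at least 50 counts in 3 libraries), the test (DESeq2), the libraries fitted (only the groups compared, or each library left out) and a block for the replicate number, over all libraries or within line. Counting only members without same-strand exon overlap or close copy was chosen after seeing the data. The cause of the moves below was not tested. Scaled by total library size, 82 members were higher and 11 lower in the WT enrichment and 88 and 4 in the mutant one. It was 6 and 0 in their difference, 30 and 1 between precipitates and 0 and 13 between inputs. In the same order all genes gave 15761 and 879, 16795 and 922, 96 and 9, 776 and 2529, and 386 and 6822. Over the 56 members without uncertain counts, with the main scaling, the numbers were 20 and 15, 26 and 12, 0 and 0, 8 and 0, and 1 and 0. The shares moved as well, to 35.7% higher and 26.8% lower in the WT enrichment and 46.4% and 21.4% in the mutant one. Between precipitates 14.3% were higher. Without a filter 4 were higher in the difference, and 10 higher and 1 lower between inputs. Fitting only the groups compared gave 38 higher and 1 lower between precipitates. DESeq2 called 2 higher in the difference (all genes: 331) and 11 between inputs (all genes: 2238).

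Leaving out 1 library gave 43 to 62 higher and 16 to 25 lower in the WT enrichment, 55 to 67 and 15 to 23 in the mutant, 0 to 2 and 0 in the difference, 12 to 31 and 0 between precipitates, and 4 to 20 and 0 to 2 between inputs. The replicate numbers did not pair the libraries in every comparison, and correlations of same-numbered libraries ran from −0.52 to 0.61. Between the precipitates 5 of 6 libraries correlated best with their own number, and between the inputs 0 of 6. It was 3 of 6 in the WT line and 4 of 6 in the mutant line. With the replicate block 38 were higher between precipitates and 11 between inputs, and the block within line gave 4 higher in the difference. Calls gained with the replicate block were SNORA74B in the mutant (−1.35, adjusted p = 6.35e-06) and, in WT, SNORA48 (−0.57, 0.00138), SNORA23 (−0.96, 0.00485), SNORA12 (1.76, 0.0256), SNORA7B (−0.76, 0.0309) and the SNORA42 copy in KHDC4 (0.72, 0.0186).

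Of 1197 values of named members under alternatives 1099 kept direction and call. Signs turned for 32, mostly values near 0. With total library size SNORA73B (mutant 0.01), SNORA21 (mutant 0.00), SNORA48 (0.51 and 1.27), SNORA23 (0.14 and 0.96), SNORA7B (0.34 and 0.84) and SNORA7A (WT 1.05) turned. SNORA63 in WT turned without WT RIP 2 (−0.17) or WT input 3 (−0.10) and reached 0.86 without WT input 2. SNORA48 in the mutant was 0.01 with either DESeq2 setting, 0.11 with coding-gene TMM, 0.06 with the stricter filter, and 0.18 and 0.16 without mutant RIP 1 or mutant input 3 (−0.20 to 0.18 over left-out libraries). SNORA7A in WT was 0.01 to 0.14 in 12 further settings (0.02, 0.11, 0.06 among them; −0.20 to 0.14 over left-out libraries) and in the mutant −0.02, −0.11 and −0.03 without mutant RIP 2, mutant input 1 or mutant input 2. Low counts limit the members with under 100 counts in all.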
